A study of Mus musculus with 15 samples.

Results

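The 10 genes described here encode chaperones of the endoplasmic reticulum (ER) and other well-known targets of the transcription factors XBP1 and ATF6: Hspa5, Hsp90b1, Calr, Pdia4, Pdia6, Dnajb9, Sdf2l1, Xbp1, Serp1 and Herpud1. They were chosen by name, and all 10 were found among the 20910 genes of the count table of cultured cells and among the 25038 genes of the count table of dissected tissue. Proteins that enter the secretory pathway fold in the ER lumen, where chaperones and disulfide isomerases hold and mature them. When unfolded proteins build up, the sensor IRE1 splices Xbp1 mRNA and the sensor ATF6 is cleaved in the Golgi, and both release factors that raise transcription of chaperone and degradation genes. The retinal pigment epithelium (RPE) makes and turns over large amounts of membrane and secreted protein for the outer retina and its basement membrane.

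The study measured polyadenylated RNA in mouse RPE cells and RPE tissue with and without the membrane glycoprotein gene Prom1. The cultured cells (mRPE) came from pooled C57/BL6J mice and were immortalized with lentiviral papillomavirus E6 and E7 genes. They then received Cas9 by lentivirus under puromycin selection, and Prom1 was targeted with a synthetic guide at exon 5. The mRPE libraries fall into wild type (WT, 4 libraries), knockout line KO22 (3 libraries) and knockout line KO26 (2 libraries). The study's own tests did not use the 2 KO26 libraries. Each knockout line is named by a number in the labels and counts as a single edited line, and the labels do not say whether the sequenced WT cells had received a scrambled guide. The tissue is dissected RPE with choroid, in 3 WT and 3 knockout (KO) libraries. In these animals floxed Prom1 was removed by a tamoxifen-dependent Cre under the Rpe65 promoter, which acts in the RPE and not in the choroid. The labels give no age for them. Prom1 itself was not analysed here.

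Total counts ran from 8076188 (KO26 replicate 2) to 27537863 (WT replicate 1) in mRPE and from 48154444 to 61766179 in tissue. Levels are given in CPM, the count of a gene relative to its library's TMM-scaled total. Relative to the total before TMM scaling, 3 counts correspond to 0.109 to 0.371 CPM in mRPE and 0.0486 to 0.0623 CPM in tissue. All 10 members lay above these floors in every library. Differences are log2 fold changes, and a gene is called when its Benjamini-Hochberg adjusted p over all genes tested is under 0.05. WT, KO22 and KO26 replicate 1 carry the library number series 8995 and the other mRPE libraries 9262, and these 2 series are taken as batches.

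The batches stood apart within WT. The chi-square per degree of freedom between libraries was 59.3 to 79.6 for WT replicate 1 against the other WT libraries, and at most 7.20 among those. All 10 members were higher in WT replicate 1 than in the mean of WT replicates 2 to 4, by 0.31 for Xbp1 up to 1.16 for Sdf2l1 (log2). The offset was not the same in each group. In KO22 it was 0.054 for Hspa5, 0.018 for Calr, -0.15 for Pdia4 and -0.68 for Sdf2l1, and in KO26 it was -0.63 for Dnajb9, whereas the fit takes 1 batch term for all groups. Values within each batch therefore stand beside the fitted ones below. In tissue, KO replicate 3 stood apart from the rest. Mitochondrially encoded genes took 84.2% of its counts, against 64.9% to 71.3% in the other 5 tissue libraries, and the members took 0.0142% of its counts, against 0.0358% to 0.0408%. On the TMM scale the summed level of the members in that library, 292 CPM, lay within the 283 to 362 CPM of the WT tissue.

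Markers set limits on the cell type label. Of 15 RPE markers, the mRPE table listed 4 (Mitf, Pmel, Best1 and Rdh5) and not Rpe65, Lrat, Rlbp1, Ttr, Rgr, Otx2, Tyrp1, Dct, Slc16a8, Krt8 or Krt18. The 4 summed to 11.8, 15.6, 17.4 and 16.7 CPM in WT replicates 1 to 4, to 40.0, 20.8 and 17.3 CPM in KO22 and to 8.17 and 12.6 CPM in KO26. Fibroblast markers, 8 of 9 listed, summed to between 12836 and 17519 CPM in WT, with Col1a2 the most abundant over the 9 libraries together. The mRPE cells are therefore described below by their name alone. In the tissue all 15 RPE markers were listed, and none was at 0 in any library.

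Per kilobase of canonical transcript, the members spanned a wide range of levels in WT mRPE cells. Hsp90b1, which encodes the lumenal HSP90 protein GRP94, had the highest level at 400.4 ± 105 CPM per kb (SD, n = 4). Hspa5 followed at 197 ± 48.6, Calr at 97.1 ± 24.7 and Xbp1 at 61.7 ± 7.39 CPM per kb. Pdia6 stood at 45.3 ± 13.4 CPM per kb and Serp1 at 30.0 ± 14.1. Pdia4 (16.2 ± 3.02), Herpud1 (9.79 ± 2.05), Dnajb9 (7.09 ± 1.10) and Sdf2l1 (4.92 ± 2.54 CPM per kb) closed the order. Among neighbours, Xbp1 and Pdia6, Pdia6 and Serp1, Serp1 and Pdia4, Herpud1 and Dnajb9, and Dnajb9 and Sdf2l1 overlapped within 1 SD, and the first 4 genes did not. In KO22 the first 3 genes were the same, with Hsp90b1 at 477 ± 35.8 and Hspa5 at 419 ± 34.0 CPM per kb. Pdia6 then stood above Xbp1 and Herpud1 above Pdia4, and Dnajb9 was last at 3.99 ± 0.902 CPM per kb (n = 3). KO26 kept Hsp90b1 first at 590.5 ± 87.9 CPM per kb and Hspa5 next at 205 ± 19.3 (n = 2), with Dnajb9 again last at 4.26 ± 1.36. The tissue showed the same first 4 genes in WT, at lower levels: Hsp90b1 40.6 ± 2.98, Hspa5 16.9 ± 3.34, Calr 16.7 ± 2.41 and Xbp1 10.4 ± 1.78 CPM per kb (n = 3). There Hspa5 and Calr did not differ beyond their spread.

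KO22 cells held more mRNA of most of these genes than WT cells did. The members' summed level was 5124, 4859 and 4377 CPM in KO22 replicates 1 to 3, against 3959.6, 2419, 2791 and 2372 CPM in WT replicates 1 to 4, so every KO22 library lay above every WT library. Hspa5, Calr, Pdia6, Sdf2l1, Serp1 and Herpud1 rose, Dnajb9 fell, and Hsp90b1, Pdia4 and Xbp1 were not called. The 6 of 10 members that rose stand against 26.9% of the 20455 genes tested, and the 1 of 10 that fell against 26.1%. KO22 thus differed from WT across the whole transcriptome, and a call in this comparison is common for any gene, while the share of members that rose was above the background. With the study's added limit of a log2 fold change over 1.2 in size, 3 members rose (Sdf2l1, Herpud1 and Calr) against 11.4% of genes, and 0 fell against 13.8%. Without that size limit, the DESeq2 Wald test also called 6 members higher, against 26.2% of genes, and 1 lower, Dnajb9, against 25.2%. The median log2 fold change was 0.78 over the members and -0.032 over all genes tested. The fit of batch 9262 alone called 8 of 10 members higher, with Hsp90b1 and Pdia4 added, and 1 lower, against 32.4% and 31.6% of all genes.

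**Figure D1:**
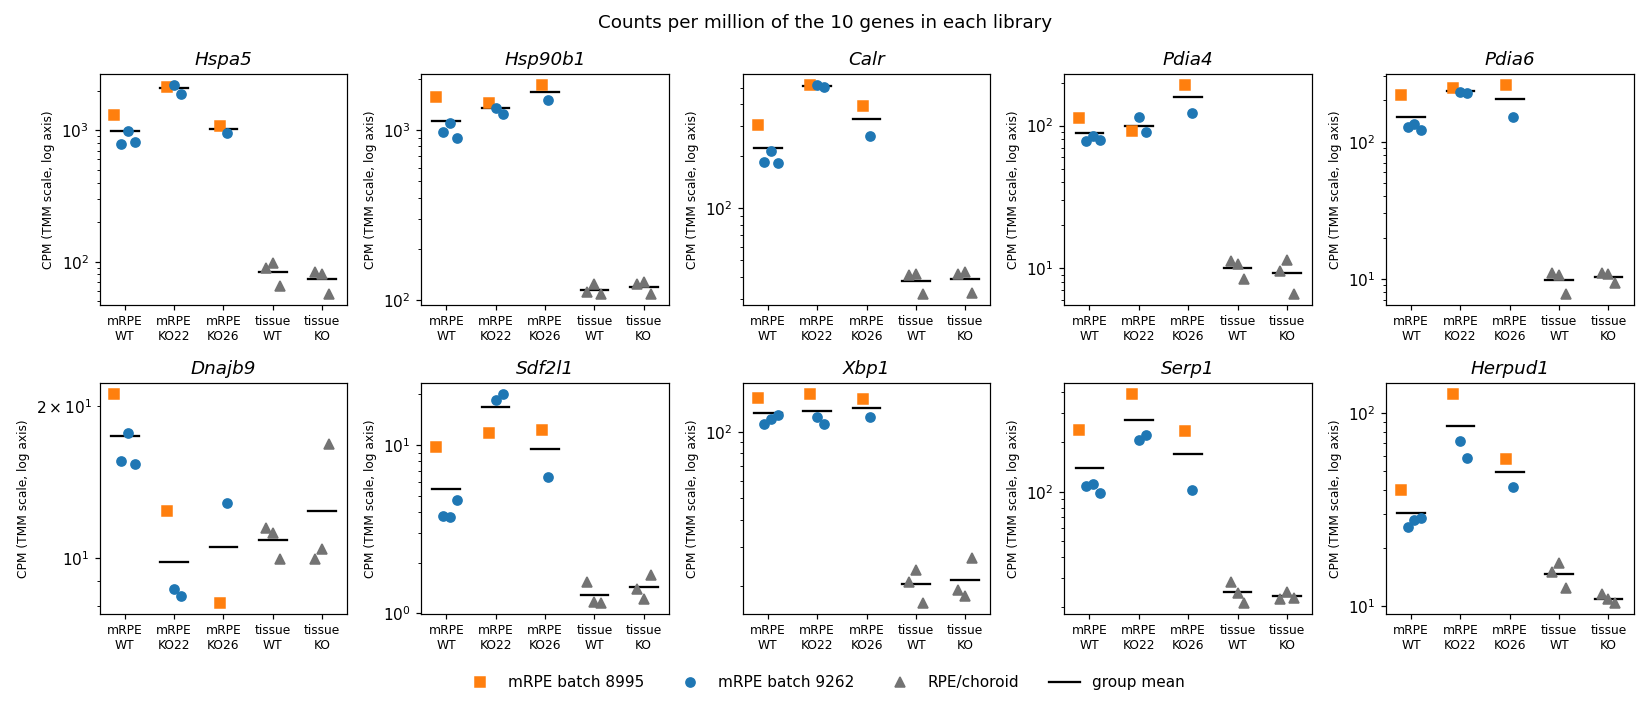
Level of each member in each library, in CPM on a log axis; each panel is a gene, orange squares are batch 8995, blue circles batch 9262, grey triangles tissue, and black bars group means. Hspa5 lies between 1891 and 2217 CPM in KO22, above the 791 to 1314 CPM of WT, while Xbp1 overlaps among all 3 mRPE groups.

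Hspa5 encodes BiP, the HSP70 protein of the ER lumen that binds unfolded chains and restrains the stress sensors (ENSMUSG00000026864; chr2:34661982-34668880, plus strand, GRCm39). For Hspa5 the WT libraries measured 1314, 791, 986 and 816 CPM in replicates 1 to 4. KO22 replicates 1 to 3 measured 2125, 2217 and 1891 CPM, and KO26 replicates 1 and 2 measured 1082 and 947 CPM. All KO22 libraries were high, each above every WT library, and both KO26 libraries lay inside the WT range. The KO22 mean was 2.13-fold the WT mean (2078 ± 168 against 977 ± 241 CPM, SD, n = 3 and 4), with a log2 fold change of 1.09 (SE 0.15, adjusted p = 0.000309). Taken batch by batch, KO22 exceeded WT by 0.69 in batch 8995 (1 library against 1) and by 1.25 in batch 9262 (2 against 3). Hsp90b1 (GRP94), which folds a narrower set of clients such as integrins, was not called (ENSMUSG00000020048; chr10:86526073-86541446, minus strand). Hsp90b1 measured 1562 CPM in WT replicate 1 and 974, 1094 and 903 CPM in WT replicates 2 to 4. Its level was 1450.2, 1353 and 1247 CPM in KO22 replicates 1 to 3 and 1847 and 1495 CPM in KO26 replicates 1 and 2. The KO22 libraries lay inside the WT range, whose upper end is WT replicate 1. Its log2 fold change was 0.25 (SE 0.14, adjusted p = 0.167), from -0.11 in batch 8995 and 0.40 in batch 9262. The call depends on the libraries of batch 8995. Hsp90b1 was called higher without KO22 replicate 1 (0.40) or without WT replicate 1 (0.38), each the only library of its group in that batch. It was also called higher in the fit of batch 9262 alone.

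Calr encodes calreticulin, the soluble lectin chaperone of the calnexin cycle and a calcium store of the ER (ENSMUSG00000003814; chr8:85567946-85573667, minus strand). Across WT replicates 1 to 4 Calr stood at 304, 185, 216 and 184 CPM. KO22 replicates 1 to 3 held 518, 519.9 and 504 CPM, and KO26 replicates 1 and 2 held 394 and 261 CPM. The 3 KO22 values lay close together and above every WT and KO26 value. Calr rose 2.31-fold in mean CPM (514 ± 8.90 against 222 ± 56.5, SD, n = 3 and 4), a log2 fold change of 1.21 (SE 0.14, adjusted p = 9.76e-05), with 0.77 inside batch 8995 and 1.39 inside batch 9262.

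Pdia6 and Pdia4 encode protein disulfide isomerases, which form and reshuffle disulfide bonds of clients in the ER (Pdia6 ENSMUSG00000020571, chr12:17316533-17335913, plus strand; Pdia4 ENSMUSG00000025823, chr6:47770077-47790462, minus strand). Replicates 1 to 4 of WT gave 217, 129, 134 and 123 CPM for Pdia6. Replicates 1 to 3 of KO22 gave 245, 230.2 and 227 CPM, while replicates 1 and 2 of KO26 gave 260.5 and 151 CPM. Every KO22 library was above every WT library, although WT replicate 1 came close, and the 2 KO26 libraries straddled the KO22 values. Pdia6 rose by 0.64 (SE 0.14, adjusted p = 0.00344) in KO22, 1.55-fold in mean CPM. The batches differed in size, with 0.17 in batch 8995 and 0.83 in batch 9262. Levels of Pdia4 were 113, 78.5, 83.9 and 79.4 CPM in the 4 WT libraries, in replicate order. They were 92.1, 116 and 90.7 CPM in the 3 KO22 libraries and 194 and 123 CPM in the 2 KO26 libraries. The highest Pdia4 value was that of KO26 replicate 1, and KO22 overlapped WT through WT replicate 1. Pdia4 was not called in KO22, at 0.16 (SE 0.15, adjusted p = 0.375), and its within-batch differences had opposite signs (-0.30 in batch 8995 and 0.34 in batch 9262). A call of higher appeared without KO22 replicate 1 (0.37) or without WT replicate 1 (0.35), and the sign turned without KO22 replicate 2 (-0.058).

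Dnajb9 and Sdf2l1 encode partners of BiP and moved in opposite directions. Dnajb9 (ERdj4) is a J-domain protein that brings BiP to misfolded clients and to IRE1 (ENSMUSG00000014905; chr12:44252341-44257171, minus strand). For Dnajb9 the WT libraries measured 21.2, 15.6, 17.7 and 15.4 CPM in replicates 1 to 4. KO22 replicates 1 to 3 measured 12.4, 8.68 and 8.38 CPM, and KO26 replicates 1 and 2 measured 8.12 and 12.8 CPM. All KO22 and KO26 libraries were low, each below every WT library. In KO22 Dnajb9 fell to 0.562 of the WT mean (9.81 ± 2.22 against 17.5 ± 2.72 CPM, SD, n = 3 and 4), a log2 fold change of -0.88 (SE 0.14, adjusted p = 0.000609). The within-batch values were close, -0.76 and -0.88 in batches 8995 and 9262. Sdf2l1 binds J-domain partners of BiP and keeps clients from aggregating (ENSMUSG00000022769; chr16:16948002-16950252, minus strand). Sdf2l1 measured 9.65 CPM in WT replicate 1 and 3.77, 3.73 and 4.74 CPM in WT replicates 2 to 4. Its level was 11.8, 18.6 and 20.2 CPM in KO22 replicates 1 to 3 and 12.3 and 6.48 CPM in KO26 replicates 1 and 2. It had the lowest level per kb of the 10 members in WT, and WT replicate 1 held more than the other WT libraries. All KO22 libraries still exceeded every WT library. Its rise was the greatest among the members by fold, 3.08-fold in mean CPM, with a log2 fold change of 1.66 (SE 0.33, adjusted p = 0.00234) and a 95% interval of 0.92 to 2.40. Between batches the rise was uneven, 0.28 in batch 8995 and 2.12 in batch 9262.

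Xbp1 encodes the transcription factor that drives many of these genes once its mRNA has been spliced by IRE1 (ENSMUSG00000020484; chr11:5470606-5483027, plus strand). Gene counts do not separate the spliced from the unspliced form, which was not analysed here. Across WT replicates 1 to 4 Xbp1 stood at 142, 109, 115 and 119 CPM. KO22 replicates 1 to 3 held 149.6, 117 and 109 CPM, and KO26 replicates 1 and 2 held 141 and 117 CPM. The 3 groups overlapped, and replicate 1 was the highest in each. The log2 fold change in KO22 was 0.0068 (SE 0.099, 95% interval -0.22 to 0.23, adjusted p = 0.960), with 0.071 and -0.019 within the 2 batches. The fitted value changed sign under several alternatives and stayed between -0.061 and 0.042.

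Serp1 encodes RAMP4, a small protein of the Sec61 translocon that guards newly made membrane proteins (ENSMUSG00000027808; chr3:58427238-58433318, minus strand). Replicates 1 to 4 of WT gave 235, 108, 112 and 98.4 CPM for Serp1. Replicates 1 to 3 of KO22 gave 393, 207 and 221 CPM, while replicates 1 and 2 of KO26 gave 234 and 103 CPM. The groups overlapped between batches, since WT replicate 1 exceeded KO22 replicates 2 and 3. Inside each batch every KO22 library was above every WT library, by 0.74 in batch 8995 and 1.01 in batch 9262. Serp1 rose 1.98-fold in mean CPM, and with batch in the fit its log2 fold change was 0.93 (SE 0.11, adjusted p = 9.92e-05). Herpud1 encodes HERP, a membrane protein that assembles the ubiquitin ligase complex of ER-associated degradation (ENSMUSG00000031770; chr8:95113022-95123141, plus strand). Levels of Herpud1 were 39.9, 25.8, 27.9 and 28.5 CPM in the 4 WT libraries, in replicate order. They were 126, 71.5 and 58.7 CPM in the 3 KO22 libraries and 57.5 and 41.6 CPM in the 2 KO26 libraries. The 3 groups formed steps, with every KO22 library above every KO26 library and every KO26 library above every WT library. Herpud1 rose 2.80-fold in mean CPM in KO22 (85.5 ± 35.9 against 30.5 ± 6.38, SD, n = 3 and 4), a log2 fold change of 1.37 (SE 0.13, adjusted p = 2.54e-05), the smallest adjusted p among the members. Batch 8995 gave 1.65 and batch 9262 gave 1.23.

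Counted without a test, 5 members were higher in all 3 KO22 libraries than in all 4 WT libraries, and 1, Dnajb9, was lower. The same complete separation held for 24.8% of all genes tested upward and 25.3% downward.

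Other features moved with KO22 beside the members. All 10 proliferation markers rose, with a median of 2.19. They summed to 988, 811, 802 and 777 CPM in WT replicates 1 to 4, to 2149, 3574 and 3429 CPM in KO22 and to 2059 and 1762 CPM in KO26, with Top2a the most abundant over the 9 libraries together and no marker at 0. Of the 9 fibroblast markers 8 were listed (not Lum), of which 1 rose and 5 fell in KO22, and their summed level was 17519, 13715, 15613 and 12836 CPM in WT, 8772, 6856 and 5625 in KO22 and 19875 and 21801 in KO26. Smooth muscle and pericyte markers, 9 of 9 listed, summed to 2070.3, 1013, 983 and 1044 CPM in WT, 451, 365 and 322 in KO22 and 2317 and 1284 in KO26, with Acta2 the most abundant over all 9 libraries and 1 marker at 0 in 5 of them. Of 8 tested, 3 rose and 4 fell in KO22, and Acta2 fell by 2.28. Endothelial markers, 6 of 10 listed (not Cdh5, Tie1, Emcn or Cldn5), summed to 237, 163, 153 and 164 CPM in WT, 5.53, 5.93 and 4.03 in KO22 and 74.4 and 56.9 in KO26, nearly all of it Kdr in WT and KO26, with 1 marker at 0 in WT replicates 1 and 4. Of these 6, 1 rose and 2 fell in KO22, and Kdr fell by 6.22. Mitochondrially encoded genes took 17.6% to 21.6% of the counts in WT and at most 16.3% in KO22. They took 17.4% and 12.9% in KO26 replicates 1 and 2, so every KO22 and KO26 library lay below every WT library. The members' chromosomes also differed. On chromosome 8, which holds Calr and Herpud1, the median of all genes was 0.60 and 48.5% of them rose. It was 0.14 on chromosome 2 (Hspa5), 0.11 on chromosome 3 (Serp1), 0.20 on chromosome 16 (Sdf2l1) and -0.031 on chromosome 11 (Xbp1). For the others the chromosome median was negative: -0.50 on chromosome 12 (Pdia6 and Dnajb9), -0.54 on chromosome 10 (Hsp90b1) and -0.45 on chromosome 6 (Pdia4). Pdia6 rose on a chromosome where 10.3% of genes did. The part of growth, of the marker genes, of the mitochondrial share and of these chromosome-wide shifts in the members' differences was not tested.

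KO26 gave another picture against the same WT libraries, which KO22 and KO26 share. In the fit over all 9 mRPE libraries, edgeR called 0 of 10 members higher, against 2.36% of the 20737 genes tested, and 0 lower, against 1.13%. At an unadjusted p under 0.05 it found 5 of 10, against 20.1% of genes, and the DESeq2 Wald test called 1 higher, Pdia4, against 4.7%, and 0 lower, against 3.01%. The members' median was 0.38, beside 0.026 over all genes. Pdia4 had the largest upward difference, 0.74 (SE 0.18, adjusted p = 0.0554), with both KO26 libraries above every WT library. Within batches it was 0.77 and 0.61, and over the alternatives tried its adjusted p ran from 0.000814 to 0.369. Herpud1, in which KO26 also lay wholly above WT, differed by 0.53 (SE 0.16, adjusted p = 0.0909), with 0.52 in batch 8995 and 0.60 in batch 9262. Dnajb9 lay wholly below WT, at -0.78 (SE 0.26, adjusted p = 0.124), and its batches gave -1.33 and -0.32. These are 2 members separated upward and 1 downward, where all genes tested showed 11.9% and 12.8%. Marker genes were called in KO26 as well. Of 10 proliferation markers 6 rose (median 1.36), of 8 fibroblast markers 2 fell and of 9 smooth muscle and pericyte markers 2 rose, and their part in the KO26 values was not tested.

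Among the remaining members in KO26, Hsp90b1 differed by 0.48 (SE 0.16, adjusted p = 0.131) and Calr by 0.45 (SE 0.17, adjusted p = 0.168). Sdf2l1, with the widest error, stood at 0.65 (SE 0.38, adjusted p = 0.363) and Pdia6 at 0.30 (SE 0.17, adjusted p = 0.338). Hspa5, which rose in KO22, differed by -0.0058 in KO26 (SE 0.18, 95% interval -0.40 to 0.39, adjusted p = 0.991), with -0.28 in batch 8995 and 0.14 in batch 9262. Serp1 and Xbp1 were at -0.0046 and 0.0037 (95% intervals -0.30 to 0.29 and -0.26 to 0.27). With 2 KO26 libraries, 1 per batch, the calls depended on which libraries shared the fit. Without KO22 replicate 1, 4 members were called higher (Pdia4 0.68, Herpud1 0.57, Hsp90b1 0.46 and Calr 0.40) and Dnajb9 lower (-0.80), where that fit called 10.5% of all genes higher and 6.99% lower. Without KO26 replicate 2 Dnajb9 was called lower as well, at -1.43, and 0 members higher, against 1.68% and 2.51% of all genes.

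Tested directly, the 2 knockout lines differed in 5 members. KO22 was above KO26 in 4 of 10, against 16.3% of genes, and below it in 1 of 10, against 18.1%. Hspa5 was higher in KO22 by 1.09 (SE 0.19, adjusted p = 0.00162), Serp1 by 0.93 (SE 0.14, adjusted p = 0.000747), Herpud1 by 0.85 (SE 0.17, adjusted p = 0.00286) and Calr by 0.76 (SE 0.18, adjusted p = 0.00844). Pdia4 was lower in KO22, at -0.58 (SE 0.20, adjusted p = 0.0437). Sdf2l1 (1.04, SE 0.42, adjusted p = 0.0761) was not called, nor were Pdia6 (0.34), Xbp1 (0.0063), Dnajb9 (-0.072) and Hsp90b1 (-0.23). For Dnajb9 the batches disagreed, with 0.58 in batch 8995 and -0.56 in batch 9262, and the fit of batch 9262 alone called it lower in KO22 (-0.61). That fit called 6 of 10 members higher and 1 lower, against 25% and 23.6% of all genes. Over the alternatives tried the adjusted p of Dnajb9 ran from 0.0158 to 0.992. Within batches KO22 exceeded KO26 in Hspa5 by 0.97 and 1.11, in Serp1 by 0.75 and 1.05, in Herpud1 by 1.13 and 0.63 and in Calr by 0.40 and 0.97 (batch 8995 first), and the Pdia4 difference was -1.07 and -0.26. Over 17 alternatives the call was kept in 16 for Hspa5, 15 for Serp1, 14 for Herpud1, 13 for Calr and 7 for Pdia4, and the size limit of 1.2 removed all 5. The Pdia4 call was lost in batch 9262 alone (-0.27) and without KO22 replicate 1 (-0.29), KO22 replicate 3 (-0.55), KO26 replicate 1 (-0.37) or any of WT replicates 2 to 4 (each -0.58), and that of Calr without KO26 replicate 2 (0.63). Without KO22 replicate 1, Sdf2l1 (1.71) and Pdia6 (0.60) were called higher too, 6 members in all and 0 lower, against 23.6% and 21.5% of all genes. In a fit of the KO22 and KO26 libraries alone the calls of Calr (0.68), Herpud1 (0.81) and Pdia4 (-0.65) ended. It kept 2 higher, Hspa5 and Serp1, and 0 lower, against 7.51% and 9.01%. Without a batch term 1 member was higher, Hspa5, and 0 lower, against 11.5% and 13.6%. Marker genes differed between the lines as well. Of 10 proliferation markers 4 were higher in KO22 and 0 lower (median 0.79). Of 8 fibroblast markers 2 were higher and 5 lower (median -0.87), and of 9 smooth muscle and pericyte markers 2 and 4 (median -1.45). Their part in the members' differences was not tested.

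**Figure D2:**
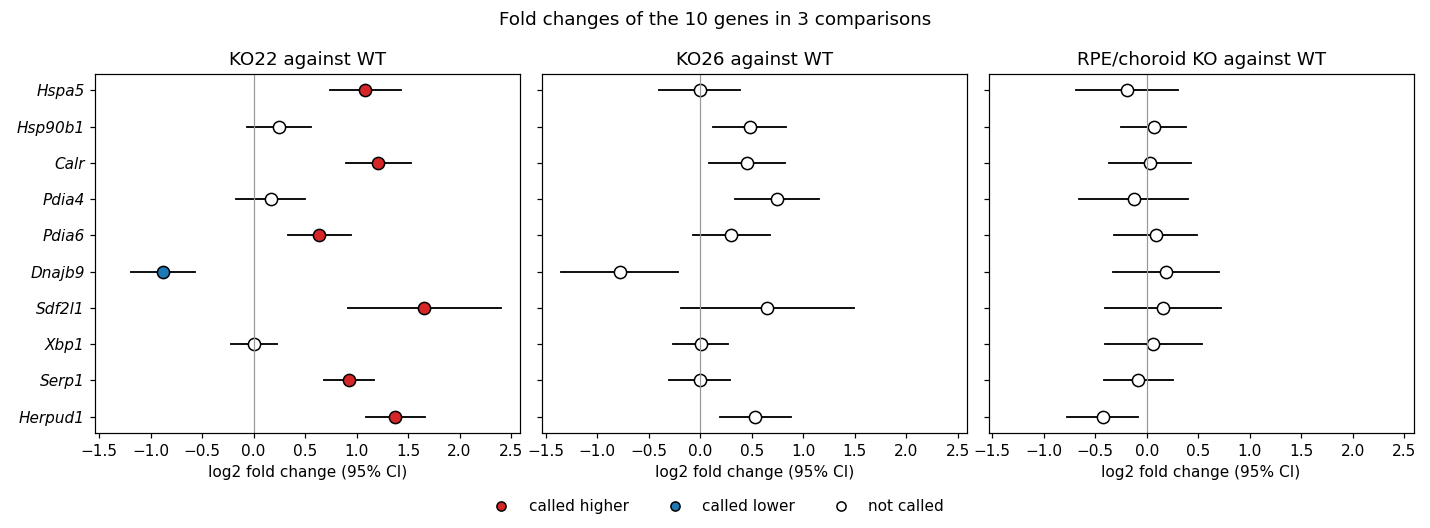
Log2 fold change of each member with its 95% interval in KO22 against WT, KO26 against WT and RPE/choroid KO against WT; red points were called higher, blue lower and white not called. KO22 shows 6 red points and 1 blue point, and the other 2 comparisons show white points alone.

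In RPE/choroid tissue the members showed no called difference. edgeR called 0 of 10 higher, against 0% of the 24926 genes tested, and 0 of 10 lower, against 0.193%, and the DESeq2 Wald test called 0 in either direction, against 0.578% and 1.22%. At an unadjusted p under 0.05 edgeR found 1 of 10, against 8.3% of genes. The median was 0.048 over members and 0.014 over all genes. The 1 member under the unadjusted limit was Herpud1, with 15.1, 16.7 and 12.3 CPM in WT replicates 1 to 3 and 11.5, 10.9 and 10.3 CPM in KO replicates 1 to 3. All KO values were below all WT values, a separation seen downward in 7.89% of genes tested. Its log2 fold change was -0.43 (SE 0.15, adjusted p = 0.482). The other 9 members had log2 fold changes from -0.19 (Hspa5) to 0.19 (Dnajb9), with overlapping groups.

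Hspa5 was 89.1, 97.1 and 65.3 CPM in WT tissue and 83.2, 80.0 and 56.6 CPM in KO tissue. Replicate 3 was the lowest of each group, and the KO values lay within or below the WT range. The 95% interval of its log2 fold change was -0.69 to 0.30, whose upper end is below the 1.09 measured in KO22 cells, although the 2 experiments were not tested against each other. Hsp90b1 was 112, 124 and 109 CPM in WT and 124, 128 and 108 CPM in KO tissue, and Calr was 41.2, 41.7 and 31.9 against 42.0, 43.1 and 32.2 CPM. Both genes overlapped between the groups, with intervals of -0.25 to 0.38 for Hsp90b1 and -0.36 to 0.43 for Calr. Dnajb9 stood at 11.5, 11.2 and 9.95 CPM in WT and 9.94, 10.4 and 16.8 CPM in KO tissue. KO replicate 3 alone was high, and without it the log2 fold change was -0.11 in place of 0.19. Xbp1 followed the same course, with 20.9, 23.7 and 16.7 CPM in WT and 19.2, 18.0 and 26.8 CPM in KO tissue, and -0.15 without KO replicate 3 in place of 0.062. Pdia4 turned from -0.13 to 0.046 without that library. The signs of Calr, Pdia6 and Serp1 also turned when other single libraries were left out, at sizes under their errors.

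The cell mix of the tissue libraries varied beside these values. Of the 15 RPE markers, 5 fell in KO tissue (3 without KO replicate 3), and Rpe65 fell by 6.06. The list summed to 3577, 2621 and 2974 CPM in WT and 1267, 1393 and 1219 CPM in KO. Dct was the most abundant over the 6 libraries together (315 to 545 CPM in WT and 570.2 to 619 CPM in KO), although Ttr (731 ± 248 CPM, SD, n = 3) and Rgr (697 ± 131 CPM) had the higher WT means. For the next lists the parentheses give the markers listed and the most abundant over all 6 libraries. Müller glia markers (6 of 6, Apoe) summed to 719.9, 547 and 513 against 773, 852 and 581 CPM, and endothelial markers (10 of 10, Emcn) to 109.6, 221 and 145 against 98.8, 89.7 and 74.9 CPM. Skeletal muscle markers (9 of 9, Myh4) summed to 301, 673 and 962 against 68.0, 253 and 844 CPM, and fibroblast markers (9 of 9, Dcn) to 962, 1687 and 1944 against 978, 866 and 1895 CPM. Erythrocyte markers (5 of 6, not Slc4a1; Hbb-bs) summed to 39.7, 72.3 and 56.1 against 14.8, 15.5 and 114 CPM. In these 3 lists KO replicate 3 lay above the other KO libraries. None of these lists had a marker at 0 in any tissue library. In bulk tissue, fewer cells of a type and less RNA per cell cannot be told apart, and every member is expressed by most cell types, so a difference confined to the RPE is measured here only together with the other cells. The part of these marker shifts in the members' values was not tested.

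The companion lists place the members in their pathway, with the same edgeR calls. In KO22 each count below stands against the 26.9% of all genes that rose and the 26.1% that fell, and each median against -0.032. Among 10 tested sensors and processing enzymes of the unfolded protein response, 2 rose and 3 fell in KO22, with a median of 0.015. Ern1, which encodes IRE1 alpha, was at 0.018 (SE 0.11, adjusted p = 0.895) and Eif2ak3, which encodes PERK, at 0.012 (SE 0.17, adjusted p = 0.958). Atf6 fell by 0.46 (SE 0.12, adjusted p = 0.00753), as did the related factors Creb3l2 (-0.70) and Creb3l1 (-0.88), while the proteases that cleave ATF6 rose (Mbtps1 0.48, Mbtps2 0.86).

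Of 24 other ER chaperones, cofactors and foldases, 15 rose and 3 fell, with a median of 0.46. Hyou1, the ER HSP110 and exchange factor of BiP, rose, with a mean of 98.7 ± 13.6 CPM in KO22 beside 33.6 ± 11.9 CPM in WT (SD, n = 3 and 4), a log2 fold change of 1.58 (SE 0.21, adjusted p = 0.000195). Creld2 rose by 1.78 (SE 0.18, adjusted p = 4.68e-05) and Manf, a BiP-binding secreted factor, by 1.64 (SE 0.17, adjusted p = 4.96e-05). The largest rise in the list was that of the oxidase Ero1a (2.12, SE 0.53, adjusted p = 0.00798). Dnajb11 (1.09) and Dnajc3 (0.43), further J-domain partners of BiP, rose too. Dnajc1 (-0.67, SE 0.11, adjusted p = 0.000918), another J-domain protein of the ER, fell and is named after its value was seen. Smaller rises were those of Pdia3 (0.50), P4hb (0.46) and Canx (0.47), and Sil1, another exchange factor of BiP, was not called (0.13). The sulfhydryl oxidase Qsox1 (-2.13) and Cdnf (-1.11) fell.

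ER-associated degradation split evenly, with 5 of 17 genes higher, 5 lower and a median of 0.15. Herpud1 itself rose, as did the VCP cofactor Nploc4 (1.03), while the lectin Os9 (-1.46), the Herpud1 paralogue Herpud2 (-1.08) and the adaptor Sel1l (-0.78) fell. Edem1, a mannosidase-like protein and known XBP1 target, was not called in KO22 (0.20, SE 0.11, adjusted p = 0.134). Of the translocon and signal peptidase, in which Serp1 acts, 13 of 17 genes rose and 2 fell (median 0.63). Serp2, the paralogue of Serp1, changed by 2.05, Ssr2 by 1.59 and the channel Sec61a1 by 0.40, and Sec62 (-0.39) and Sec63 (-0.49) were the lower pair.

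Other lists of the secretory pathway also held more genes that rose than fell. In the N-glycosylation and calnexin cycle list 11 of 14 genes rose and 1 fell (median 0.68), led by the oligosaccharyltransferase genes Ostc (1.17) and Rpn2 (1.10), with Uggt2 lower (-0.45). ER export and retrieval had 12 of 18 higher and 2 lower (median 0.53), with the COPII coat genes Sec23b (0.87) and Sec24c (0.78) at the top and Kdelr1 (-0.76) and Sec23a (-0.36) below. Collagen-folding ER proteins gave 3 of 10 higher and 1 lower (median 0.25), the share higher being close to the 26.9% of all genes. Among them Plod3 (1.02) and P3h1 (0.74) rose, P4ha3 (-1.58) fell, and Serpinh1, the collagen chaperone HSP47, was at 0.38 without a call. In the fit of batch 9262 alone this list had 6 higher and 3 lower, against 32.4% and 31.6% of all genes, and the members 8 of 10 higher and 1 lower.

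Stress genes outside the ER lumen were counted in the same way. The PERK and ATF4 list had 6 of 11 higher and 2 lower (median 0.75). Atf4 rose by 1.40 (SE 0.17, adjusted p = 0.000127), Atf3 by 3.65 and Asns by 1.61, whereas Ddit3, which encodes CHOP, fell (-0.57, SE 0.18, adjusted p = 0.0252) and Nupr1 fell (-1.06). Trib3 was not called (1.22, SE 0.55, adjusted p = 0.0916). Of 12 cytosolic heat shock genes, 8 rose and 2 fell (median 1.01), with Hsp90aa1 at 1.38, Hsp90ab1 at 1.24, Hspa8 at 0.95, Hspa1b at 1.80 and Dnajb1 at 1.90 among the higher and Bag3 (-0.49) and Cryab (-0.96) the lower. Hspa1a was not called (1.54, SE 0.74, adjusted p = 0.109). Of 7 mitochondrial chaperone genes, 6 rose (median 1.29), among them Hspd1 (1.84), Trap1 (1.52) and Hspa9 (1.49).

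In KO26 against WT the companion lists held few calls. All genes tested gave 2.36% higher and 1.13% lower, with a median of 0.026. The pathway list with most calls was the PERK and ATF4 list, in which 5 of 11 rose, with a median of 0.86. Trib3 rose by 2.43 (SE 0.54, adjusted p = 0.0376) and Atf4 by 0.86 (SE 0.20, adjusted p = 0.0444), and Ddit3 was not called (0.64). The 5 also held Atf3 (2.13), Asns (1.55) and Sesn2 (0.99), the last named after its value was seen. Of the mitochondrial chaperones 3 of 7 rose: Hspa9 (0.86), Trap1 (0.72) and Lonp1 (1.08). Edem1 rose by 0.61 (SE 0.13, adjusted p = 0.0361) as the 1 called gene of ER-associated degradation. Of the other ER chaperones Pdia5 rose (1.28) and Qsox1 fell (-0.90), with Pdia5 named after its value was seen. The sensor, N-glycosylation, ER export and collagen-folding lists had 1 called gene each, all higher: Creb3l1 (0.69), Rpn2 (0.74), Kdelr3 (0.66, named after its value was seen) and Plod3 (0.72). Hyou1 (0.31), Creld2 (0.25), Manf (0.018) and Dnajb11 (0.35) were not called in KO26. edgeR called 0 of 17 translocon genes (1 at an unadjusted p under 0.05, 1 by DESeq2) and 0 of 12 cytosolic heat shock genes (2 at an unadjusted p under 0.05, 0 by DESeq2), where 20.1% of all genes lay under the unadjusted limit and DESeq2 called 4.7% higher and 3.01% lower.

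In the direct test between the lines, KO22 was above KO26 in Manf (1.63, SE 0.24, adjusted p = 0.000594), Creld2 (1.54, SE 0.24, adjusted p = 0.000832), Hyou1 (1.29, SE 0.28, adjusted p = 0.00570), Dnajb11 (0.75) and Dnajc3 (0.70). It was below KO26 in Dnajc1 (-0.45, SE 0.14, adjusted p = 0.0330) and in the translocon gene Sec63 (-0.50, SE 0.14, adjusted p = 0.0168), the first named after its value was seen, and Sil1 was not called (-0.35, SE 0.21, adjusted p = 0.229). Of the 24 other ER chaperones, cofactors and foldases, 8 were higher in KO22 and 4 lower, against 16.3% and 18.1% of all genes, with a median of 0.25, beside 0.55 for the members and 0.0017 for all genes. Against the same shares of all genes, the PERK and ATF4 list had 1 of 11 higher in KO22, 3 lower and a median of -0.14. The translocon list, in which Sec63 was the 1 lower gene, had 7 of 17 higher (median 0.48), among them Serp2 (1.92) and Ssr2 (1.24). Higher and lower genes numbered 7 and 2 of 12 for cytosolic heat shock (median 0.91), 3 and 0 of 7 for mitochondrial chaperones (0.64), 6 and 1 of 14 for N-glycosylation (0.36), 7 and 1 of 18 for ER export (0.18), 5 and 3 of 17 for ER-associated degradation (0.021), 1 and 3 of 10 for the sensors (-0.033) and 0 and 2 of 10 for collagen folding (-0.24).

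No companion list held a called gene in the tissue, by edgeR or by DESeq2. At an unadjusted p under 0.05, edgeR found 3 genes each among the other ER chaperones, ER export and collagen-folding lists, 1 each among the sensors, ER-associated degradation, translocon, N-glycosylation and cytosolic heat shock lists, and 0 in the PERK and ATF4 and the mitochondrial lists, where 8.3% of all genes lay under that limit. Derl3, a degradation gene tested in tissue alone, had the lowest level of these, 0.585 ± 0.284 CPM in WT and 0.138 ± 0.0730 CPM in KO (SD, n = 3), and differed by -1.99 (SE 0.58, adjusted p = 0.368). Serpinh1 differed by -0.50 (adjusted p = 0.523), Hyou1 by -0.38 (adjusted p = 0.743) and Atf4 by -0.11 (adjusted p = 0.896). The list medians lay between -0.20 and 0.087.

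Across all 15 libraries, each gene centred on the WT mean of its own table, the patterns most like that of Hspa5 among 4261 genes of at least 10 CPM in both tables were those of Msn (root mean square difference 0.127 log2 units), Cmtm4 (0.130), Emc1 (0.155), Wdr82 (0.163) and Kpna6 (0.176). Calr was the nearest member, at rank 44 (0.230), followed by Pdia6 (rank 302), Serp1 (419), Herpud1 (587), Hsp90b1 (1141), Xbp1 (1903) and Dnajb9 (3721). Pdia4 and Sdf2l1 had a mean under 10 CPM over the 6 tissue libraries and have no rank. Over all pairs of members, Hsp90b1 and Pdia4 were closest (0.218), then Hsp90b1 and Pdia6 (0.226) and Hspa5 and Calr (0.230), and Dnajb9 and Sdf2l1 were farthest apart (1.34). Among members, Hspa5 thus lay nearest to Calr, and Hsp90b1 nearest to the disulfide isomerases.

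As a description, the members' promoters were searched for known elements of the unfolded protein response. The RefSeq promoter table was used (build GRCm38.p6, 250 bases before to 50 bases after each start), where all 10 members matched. The ER stress element (ERSE) is CCAAT, then 9 bases of any kind, then CCACG; ERSE-II is ATTGG, then 1 base of any kind, then CCACG; and the core of the unfolded protein response element (UPRE) is TGACGTG. Both strands were read. ERSE occurred in 4 of 10 member promoters (Hspa5, Hsp90b1, Calr and Pdia6) and in 39 of all 32851 promoters of that length (0.119%). ERSE-II occurred in that of Herpud1 and in 0.0365% of all, and the UPRE core in that of Hspa5 and in 2.01% of all. Any of the 3 was present in 5 of 10 members, against 2.16% of all promoters. The members were named as known targets of XBP1 and ATF6. A higher share among them is therefore built into the choice and is no test. The other ER chaperone list had 7 of 28 promoters with one, ER-associated degradation 4 of 15, ER export 4 of 17, the translocon 1 of 14 and N-glycosylation 1 of 13. The sensors (7 promoters), collagen-folding (9), PERK and ATF4 (10), cytosolic heat shock (12) and mitochondrial (7) lists had 0. Of the 5 members with a match 4 rose in KO22, and of the 5 without a match 2 did. The part of these elements in the rise was not tested. Hsp90b1 holds 2 ERSE matches and was not called in KO22, while Sdf2l1 and Serp1, which rose, hold none in this window, nor do Pdia4, Dnajb9 and Xbp1. A match is a description of letters, and its absence says only that these letters are not in the window.

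The stretches around these matches are shown because they hold the elements found in members. They are the gene's own strand, placed on GRCm39 by exact match, with the motif in capitals, and those in annotated exons are kept to 29 bases. Counted from the start of the RefSeq transcript, the UPRE core of Hspa5 lies at -157 to -151 and its ERSE at -65 to -47. The ERSE matches of Hsp90b1 lie at -212 to -194 and, reversed, at -107 to -89. By the GENCODE annotation the ERSE of Hspa5 and the near match of Hsp90b1 lie in exons of those genes. The far match of Hsp90b1 lies in an exon of Ttc41. Calr has its ERSE reversed at -162 to -144, Pdia6 at -98 to -80, and Herpud1 its ERSE-II at -52 to -42. The sequences come from chr2:34661852-34661981 and chr2:34662032-34662060 (plus strand) for Hspa5, chr10:86541497-86541525 and chr10:86541392-86541420 (minus strand) for Hsp90b1, chr8:85573668-85573750 (minus strand) for Calr, chr12:17316340-17316532 (plus strand) for Pdia6 and chr8:95112807-95113021 (plus strand) for Herpud1.
Hspa5 UPRE core: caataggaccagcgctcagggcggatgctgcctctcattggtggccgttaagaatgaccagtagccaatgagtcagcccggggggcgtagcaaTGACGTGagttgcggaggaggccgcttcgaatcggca
Hspa5 ERSE: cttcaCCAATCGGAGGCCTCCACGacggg
Hsp90b1 ERSE, far match: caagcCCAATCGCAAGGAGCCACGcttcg
Hsp90b1 ERSE, near match: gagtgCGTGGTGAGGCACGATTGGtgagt
Calr ERSE: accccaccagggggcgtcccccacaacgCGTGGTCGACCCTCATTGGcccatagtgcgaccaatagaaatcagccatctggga
Pdia6 ERSE: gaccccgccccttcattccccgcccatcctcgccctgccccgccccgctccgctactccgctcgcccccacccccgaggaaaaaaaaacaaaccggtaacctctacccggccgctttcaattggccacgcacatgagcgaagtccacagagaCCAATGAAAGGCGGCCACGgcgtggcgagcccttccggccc
Herpud1 ERSE-II: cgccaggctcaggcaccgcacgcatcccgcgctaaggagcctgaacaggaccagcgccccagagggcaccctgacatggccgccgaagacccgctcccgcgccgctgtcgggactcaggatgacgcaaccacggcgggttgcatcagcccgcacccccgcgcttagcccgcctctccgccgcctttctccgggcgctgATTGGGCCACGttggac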

How the data were processed

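RNA was sequenced from 9 mRPE and 6 RPE/choroid libraries of polyadenylated RNA. The authors trimmed reads with Trim Galore 0.6.7 and aligned them with STAR to mm39, per the labels, and deposited a raw count per gene for each library; their normalized tables were not used here. The labels name an NEB stranded kit and the methods a TruSeq one. Counts were analysed in R 4.3.3 with edgeR 4.0.16: TMM scaling, a minimum of 5 counts in 3 or more libraries per gene, quasi-likelihood F test, batch (8995 or 9262) as a term in mRPE, and Benjamini-Hochberg adjustment over all genes tested. KO22 against WT used 7 libraries, the other mRPE comparisons 9, and tissue 6. Within-batch differences add 0.5 CPM before the log, and the likeness measure used a prior count of 2. Alternatives were the DESeq2 1.42.0 Wald test and size factors, other count filters, no batch term, batch 9262 alone, fewer groups in the fit, a size limit of 1.2 and leaving out each library. The pipeline was tested on simulated data. Named were all members, a set list of pathway genes, and in each companion list the 2 largest and 2 smallest called changes in KO22; some genes under this rule are not reported here. Members and lists were chosen with earlier results of these data known. Nothing in the labels says whether replicates were separate cultures or animals, so p-values measure only the spread between these libraries. Gene positions and lengths are those of GENCODE vM39. Rabepk lies opposite Hspa5 over 5980 of its 6899 bases, and Ccdc117 opposite all 12422 bases of Xbp1; other genes lie opposite Hsp90b1 (4851 bases), Serp1 (1845 and 584), Pdia6 (1196), Herpud1 (700) and Dnajb9 (61). Whether reads were counted by strand is not stated, so how reads over these stretches were assigned is not known.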

Additional observations from a re-analysis of the deposited data

Results flagged for a closer look

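In 4 of the 10 members tested for a distant library among the 4 WT mRPE libraries, WT replicate 1 lay far above the other 3. Its level was 113 CPM for Pdia4, 217 CPM for Pdia6, 9.65 CPM for Sdf2l1 and 235 CPM for Serp1. Chance alone marks about 1 in 20 such groups, and the 10 genes share the same libraries. WT replicate 1 is the only WT library of batch 8995, so library and batch cannot be told apart within WT.

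The effects of the 2 knockout lines, each against the same WT libraries, differed by the direct test between the lines. The log2 difference KO22 minus KO26 was 1.09 for Hspa5, 0.76 for Calr, 0.93 for Serp1, 0.85 for Herpud1 and -0.58 for Pdia4. That test called 16.3% of all genes higher in KO22 and 18.1% lower. In a fit of the KO22 and KO26 libraries alone the calls of Calr, Herpud1 and Pdia4 ended.

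Herpud1 was lower in every KO than in every WT library of the tissue, by -0.41 in mean log2 CPM, and higher in every KO22 than in every WT library of the cultured cells. Such complete separation held for 7.89% of all genes downward in tissue and for 24.8% upward in KO22. The tissue difference was not called by edgeR. The difference between the tissue and the cells was not tested.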

How the results depend on the processing

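Members' fold changes kept their direction and their side of the threshold in 133 of 150 values under the alternatives for KO22 against WT, 137 of 170 for KO26 against WT, 137 of 170 for KO22 against KO26 and 111 of 120 in tissue; 4, 0, 20 and 0 lost a call, 6, 17, 6 and 0 gained one and 7, 16, 7 and 9 changed sign. The size limit of 1.2 removes calls by its construction: KO22 against WT then had 3 members higher and 0 lower, and KO22 against KO26 had 0 and 0. With KO22 and KO26 libraries alone 2 were higher and 0 lower in KO22 against KO26 (7.51% and 9.01% of all genes), and with no batch term 1 and 0 (11.5% and 13.6%). Leaving out 1 library gave 3 to 6 higher and 0 to 1 lower. KO26 against WT had 4 higher in batch 9262 alone (7.98% of all genes), 1 with DESeq2 size factors (2.46%), 1 with the DESeq2 Wald test (4.7%), 1 with filterByExpr (2.77%), and 3 higher and 1 lower with WT and KO26 alone (8.76% and 7.06%); leaving out 1 library gave 0 to 4 higher and 0 to 1 lower. Signs changed as follows. Xbp1 in KO22 against WT was -0.013 in batch 9262 alone, -0.061 with filterByExpr and -0.055 to 0.024 with 1 library left out; Pdia4 there was -0.058 to 0.37 with 1 left out. In KO26 against WT, Hspa5 was 0.14 in batch 9262 alone, 0.055 with no batch term and -0.097 to 0.18 with 1 left out; Serp1 was 0.28 with no batch term and -0.077 to 0.084 with 1 left out; Xbp1 was -0.0094 with DESeq2 size factors, -0.010 with the Wald test, -0.010 with WT and KO26 alone and -0.045 to 0.041 with 1 left out. In KO22 against KO26, Xbp1 was -0.068 in batch 9262 alone, -0.034 with these lines alone, -0.045 with no batch term and -0.033 to 0.053 with 1 left out; Dnajb9 was -0.56 to 0.55 with 1 left out; and the collagen-folding median was 0.087 in batch 9262 alone. In tissue, with 1 library left out, Calr was -0.081 to 0.14, Dnajb9 -0.11 to 0.31, Pdia4 -0.32 to 0.046, Pdia6 -0.058 to 0.18, Serp1 -0.18 to 0.037 and Xbp1 -0.15 to 0.18. Where construction does not show it, the cause was not tested. Leaving out mitochondrially encoded genes in tissue, and recomputing the lists in batch 9262 alone and without tissue KO replicate 3, were chosen after seeing the data. A fit that leaves KO26 with 1 library assumes that it varies like the other groups. No paired analysis was possible because library numbers do not pair samples between groups.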
